A study of Mus musculus with 4 samples.

Results

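The light chain variable (V) genes of the mouse kappa and lambda loci were examined in activated splenic B cells of wild type mice and of mice labelled as Adar1 B cell conditional knockouts (cKO). A member was any gene whose symbol starts with Igkv or Iglv and that had at least 20 counts summed over the libraries, which left 103 of the 163 genes with such symbols and of 55401 genes in all. They are 100 kappa V genes on chromosome 6 and 3 lambda V genes on chromosome 16. Of these members, 97 are annotated as V genes and 6 as V pseudogenes, and the 60 genes below the minimum are 54 pseudogenes and 6 V genes. Just inside the minimum lay the pseudogene Igkv13-87 with 20 counts and Igkv4-62 with 21, and just outside it Igkv2-107 with 19 and Igkv8-26 with 17. Splenic B cells of C57BL/6 mice were purified with anti-CD43 beads and kept for 36 hours with 1 µg/ml of anti-CD40 and 10 µg/ml of anti-IgM, which engage the receptor CD40 and the B cell receptor. Poly(A) RNA was sequenced from 2 wild type and 2 cKO-labelled libraries, and both genotypes received the same stimulus. The sources used here do not give the Cre driver, the part of Adar that was deleted, the age of the mice or whether the libraries of a genotype came from separate mice, so p-values measure the spread between these libraries, which may be technical.

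A light chain is assembled in a developing B cell by joining a V segment to a J segment, and the joined exon is then spliced to a constant (C) exon, so that a mature light chain mRNA carries V, J and C parts. A B cell normally keeps a single productive light chain, and for that reason the share of a V gene in the light chain mRNA of a population depends on how many cells carry it and on how much light chain mRNA each of them makes. In bulk RNA these cannot be told apart. In the mouse most B cells carry a kappa light chain, drawn from a large cluster of V genes in both orientations upstream of a small set of J genes, and the lambda locus has only a handful of V genes. Iglv2 and Iglv3 lie upstream of Iglc2, and Iglv1 lies upstream of Iglc3 and Iglc1. Usage is defined here as the count of a V gene in percent of all Igkv and Iglv counts of the library. Level is its count relative to the library size, on the usual CPM scale, with library sizes scaled by the trimmed mean of M values (TMM). Members had deposited exon lengths of 286 to 501 bases with a median of 362, and 96 of the 103 lay between 340 and 400 bases, so counts and levels per length gave nearly the same order: 9 of the 10 most used members were also among the 10 highest per kilobase.

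The reference sequences of the genes with the largest changes are shown first, because closely related V genes may share reads. They are from the V exons of the GENCODE M21 transcripts (GRCm38), 5′ to 3′ on the coding strand. Iglv1 (chr16:19085017-19085316, minus strand) and Iglv2 (chr16:19260401-19260700, minus strand) rose in level and in usage, and Iglv3 (chr16:19241207-19241506, minus strand) rose in level and was not called in usage. Capitals mark the bases at which Iglv1 and Iglv2 differ from each other, and no base of Iglv3 is marked.
Iglv1: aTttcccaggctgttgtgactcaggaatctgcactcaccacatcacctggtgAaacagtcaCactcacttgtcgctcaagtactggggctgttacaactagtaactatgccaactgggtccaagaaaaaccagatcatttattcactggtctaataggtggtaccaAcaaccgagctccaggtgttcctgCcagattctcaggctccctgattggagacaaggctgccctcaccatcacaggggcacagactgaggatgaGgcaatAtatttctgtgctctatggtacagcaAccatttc
Iglv2: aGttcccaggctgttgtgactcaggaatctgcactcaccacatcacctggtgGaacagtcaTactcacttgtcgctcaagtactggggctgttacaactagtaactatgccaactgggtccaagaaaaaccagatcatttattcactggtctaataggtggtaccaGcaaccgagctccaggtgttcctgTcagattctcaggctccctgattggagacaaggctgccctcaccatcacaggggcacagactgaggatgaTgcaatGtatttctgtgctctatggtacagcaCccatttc
Iglv3: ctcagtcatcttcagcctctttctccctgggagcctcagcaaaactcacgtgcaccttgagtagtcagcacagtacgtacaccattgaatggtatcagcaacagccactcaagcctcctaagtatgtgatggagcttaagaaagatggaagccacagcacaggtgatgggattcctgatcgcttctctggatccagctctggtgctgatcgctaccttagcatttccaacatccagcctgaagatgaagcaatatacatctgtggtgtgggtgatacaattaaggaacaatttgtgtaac
Over these 300 bases Iglv1 and Iglv2 differ at 8 positions (97.3% identity). Over the whole coding sequence the identity was 96.9% for Iglv1 with Iglv2, 56.6% for Iglv1 with Iglv3 and 56.0% for Iglv2 with Iglv3. Of all windows of 100 bases in Iglv1, 1.71% also occur in Iglv2, and 22.2% of its windows of 50 bases do.

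The kappa genes with the largest fall and the largest rise of usage are shown with a close relative. Igkv3-4 (chr6:70672078-70672377, plus strand) and Igkv3-5 (chr6:70663596-70663895, plus strand) fell, and Igkv3-7 (chr6:70607737-70608036, plus strand) of the same family was not called in usage and rose in level (log2 change 0.66 ± 0.15, edgeR). Igkv5-45 (chr6:69775750-69776047, minus strand) rose, and its near-copy Igkv5-43 (chr6:69823355-69823652, minus strand) was not called in usage and rose in level (0.49 ± 0.11). Capitals in Igkv3-4 and Igkv3-7 mark where these differ from each other, capitals in Igkv3-5 where it differs from Igkv3-4, and capitals in Igkv5-45 and Igkv5-43 where those differ from each other.
Igkv3-4: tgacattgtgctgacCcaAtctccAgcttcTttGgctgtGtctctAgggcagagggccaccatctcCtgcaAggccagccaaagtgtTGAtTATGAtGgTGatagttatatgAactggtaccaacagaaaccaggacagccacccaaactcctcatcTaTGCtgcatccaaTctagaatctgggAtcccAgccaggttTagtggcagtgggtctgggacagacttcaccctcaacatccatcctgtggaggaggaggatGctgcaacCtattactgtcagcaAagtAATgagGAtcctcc
Igkv3-7: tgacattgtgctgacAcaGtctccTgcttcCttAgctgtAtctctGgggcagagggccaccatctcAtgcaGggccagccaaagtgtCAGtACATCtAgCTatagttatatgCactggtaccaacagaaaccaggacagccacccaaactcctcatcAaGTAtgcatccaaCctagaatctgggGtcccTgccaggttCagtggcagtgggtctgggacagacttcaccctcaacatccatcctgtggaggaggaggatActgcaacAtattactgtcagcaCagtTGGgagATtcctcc
Igkv3-5: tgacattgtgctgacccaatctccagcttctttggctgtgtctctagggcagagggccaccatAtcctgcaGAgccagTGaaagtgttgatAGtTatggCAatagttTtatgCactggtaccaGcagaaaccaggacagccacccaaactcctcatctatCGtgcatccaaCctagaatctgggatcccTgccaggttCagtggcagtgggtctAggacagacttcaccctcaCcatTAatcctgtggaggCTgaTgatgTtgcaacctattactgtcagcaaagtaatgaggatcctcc
Igkv5-45: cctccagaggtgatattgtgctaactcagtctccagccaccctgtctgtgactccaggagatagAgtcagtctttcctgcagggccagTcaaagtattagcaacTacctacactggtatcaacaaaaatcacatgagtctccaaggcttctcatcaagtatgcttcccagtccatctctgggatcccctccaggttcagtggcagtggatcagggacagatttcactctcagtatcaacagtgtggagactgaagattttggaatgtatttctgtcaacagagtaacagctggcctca
Igkv5-43: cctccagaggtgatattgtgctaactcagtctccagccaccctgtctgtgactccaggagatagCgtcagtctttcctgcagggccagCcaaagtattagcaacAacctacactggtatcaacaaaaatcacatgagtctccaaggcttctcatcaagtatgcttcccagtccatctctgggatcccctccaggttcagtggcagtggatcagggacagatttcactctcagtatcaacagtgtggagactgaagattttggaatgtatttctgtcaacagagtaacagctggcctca
Igkv3-4 differs from Igkv3-7 at 37 of 300 bases and from Igkv3-5 at 26 of 300. Igkv5-45 differs from Igkv5-43 at 3 of 298 bases, and 32.9% of its windows of 100 bases also occur in Igkv5-43. Igkv3-4, Igkv8-24 and Igkv5-39 shared no window of 100 bases with another gene. Of its windows of 50 bases, however, Igkv3-4 shared 34.1% with other Igkv3 genes, while Igkv8-24 and Igkv5-39 shared none. Over all members, 46 of 103 shared at least 1 window of 100 bases and 3 shared more than 50% of them. For windows of 50 bases these numbers were 80 and 18. The labels state neither the read length nor how reads that map to several genes were treated, so the split of counts between near-identical members is uncertain.

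Wild type libraries held 17327480 and 19669651 counts, and cKO-labelled libraries 17993261 and 17449871. The targeted gene Adar (ENSMUSG00000027951, chr 3, 89715022 to 89753446) was higher in the cKO-labelled libraries, at 218 and 232 CPM against 137 and 150 CPM in wild type (log2 change 0.65 ± 0.063 SE, adjusted p = 3.39e-08, edgeR). A count over the whole gene does not check a deletion of some exons, and directions below refer to the labels. The B cell marker Cd79a, which transmits antigen receptor signals, stood at 963 and 906 CPM in wild type against 729 and 743 CPM in cKO-labelled libraries, and Ms4a1, which encodes CD20, at 806 and 815 CPM against 858 and 894 CPM. Cd79a was called lower (log2 change -0.34 ± 0.054, adjusted p = 4.51e-05, edgeR), and Ms4a1 was not called (adjusted p = 0.146).

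Light chain V mRNA as a whole was higher in the cKO-labelled libraries, while light chain C mRNA overlapped between the genotypes. The V genes took 22549 and 24377 counts in wild type against 29180 and 29037 in cKO-labelled libraries, or 0.130%, 0.124%, 0.162% and 0.166% of each library. Summed over the members the level was 1305 and 1237 CPM in wild type against 1616 and 1659 CPM in cKO-labelled cells, or 1271 ± 48.5 against 1638 ± 30.2 CPM (SD, n = 2 each), a ratio of 1.29. The genotypes did not overlap, and on the log2 scale the difference was 0.37 (exact permutation test over libraries, two-sided, p = 0.33, the smallest that 2 against 2 libraries allow).

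Kappa and lambda V genes differed in the size of this difference, which was itself not tested. Summed Igkv levels were 1165 and 1099 CPM in wild type against 1338 and 1356 CPM in cKO-labelled cells (1.19-fold), and summed Iglv levels were 142 and 139 CPM against 281 and 306 CPM (2.09-fold). Igkc, the kappa constant exon, stood at 1322 and 1140 CPM in wild type against 1152 and 1325 CPM in cKO-labelled cells, so its genotypes overlapped (log2 change 0.01 ± 0.066, adjusted p = 0.95, edgeR). The lambda constant genes summed to 512, 483, 467 and 518 CPM in the same order and overlapped too. The number of Iglv counts per Iglc count was 0.277 and 0.287 in wild type against 0.60 and 0.591 in cKO-labelled libraries, and that of Igkv per Igkc was 0.882 and 0.965 against 1.16 and 1.02. Both ratios were higher in each cKO-labelled library than in each wild type library. Heavy chain V genes (Ighv) summed to 543 and 556 CPM in wild type against 806 and 813 CPM in cKO-labelled cells (1.47-fold).

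**Figure D1:**
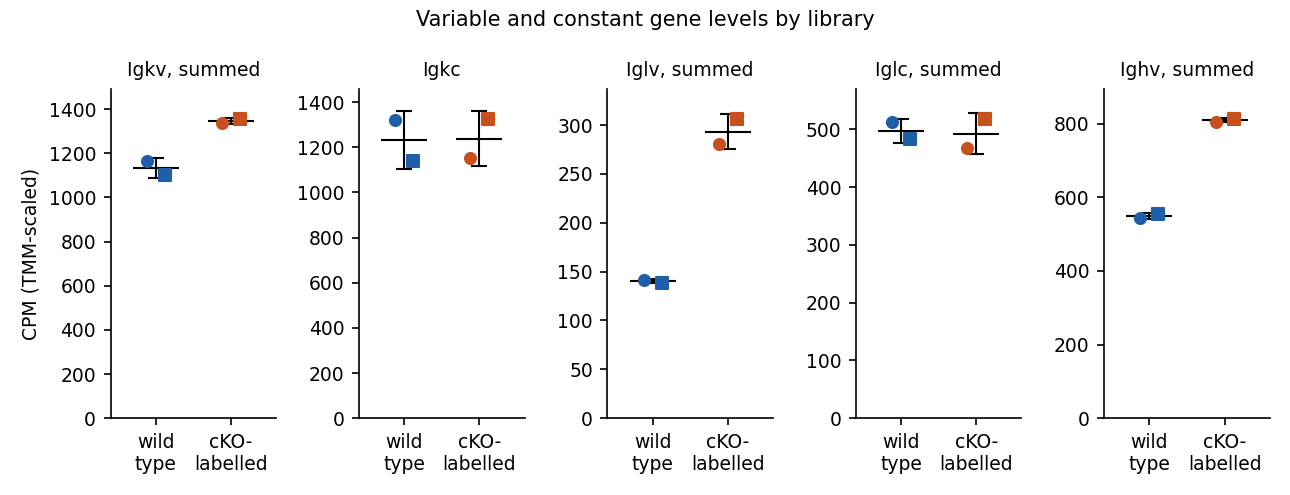
Summed level of kappa V (Igkv), kappa C (Igkc), lambda V (Iglv), lambda C (Iglc) and heavy chain V (Ighv) genes in CPM on a linear axis from 0, each panel with its own scale; points are libraries and bars the mean ± SD of 2 libraries. The V panels separate the genotypes, most for Iglv (139 and 142 against 281 and 306 CPM), and both C panels overlap.

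In the level fit, 21.7% of all genes tested were called. Among the single C and J genes, which carry no V sequence, 1 of 13 tested was called. That gene was Iglc1, which rose from 63.9 and 58.0 CPM to 69.3 and 86.1 CPM (log2 change 0.35 ± 0.084, adjusted p = 0.00339, edgeR). Iglc2, the most abundant lambda constant gene, stood at 346 and 331 CPM in wild type against 316 and 333 CPM in cKO-labelled cells (log2 change -0.06 ± 0.058, adjusted p = 0.523). Iglc3 stood at 101 and 92.2 CPM against 80.6 and 97.9 CPM (log2 change -0.12 ± 0.077, adjusted p = 0.329). Iglc2 and Iglc3 are 95.3% identical over 452 aligned bases, so the split of counts between them is uncertain, and Iglc1 is 70.0% identical to Iglc2.

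The lambda share of V counts was 10.9% and 11.2% in wild type against 17.3% and 18.4% in cKO-labelled libraries, or 11 ± 0.248% against 17.9 ± 0.774% (SD, n = 2 each). The exact 95% binomial intervals, which cover counting error only, ran from 10.5 to 11.3% and 10.8 to 11.6% in wild type and from 16.9 to 17.8% and 18 to 18.9% in cKO-labelled libraries. The difference of 6.86 percentage points exceeded the spread within each genotype, and the exact permutation test over libraries again gave p = 0.33, its floor. The lambda share of C counts was 27.9% and 29.8% in wild type against 28.9% and 28.1% in cKO-labelled libraries, with overlap.

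All 3 lambda V genes rose in level, and 2 of them also rose in usage. Iglv2 had 428 and 492 counts in wild type against 1290 and 1560 in cKO-labelled libraries, a usage of 1.9% and 2.02% against 4.42% and 5.37%. This was the largest rise of usage among members tested (log2 change 1.32 ± 0.10, adjusted p = 8.40e-11, edgeR), and its level rose by a log2 change of 1.69 ± 0.093. Iglv1, the most used member of all, had 1387 and 1486 counts against 2827 and 2790, a usage of 6.15% and 6.10% against 9.69% and 9.61% (log2 change 0.66 ± 0.075, adjusted p = 9.19e-08). The libraries of each genotype lay close together for Iglv1, and the exact 95% intervals of its usage were 5.84 to 6.47% and 5.80 to 6.40% in wild type and 9.35 to 10.0% and 9.27 to 9.95% in cKO-labelled libraries. Iglv3 had 633 and 754 counts against 943 and 1003, and its level rose (log2 change 0.55 ± 0.081, adjusted p = 1.80e-05). Its usage of 2.81% and 3.09% against 3.23% and 3.45% did not pass (log2 change 0.18 ± 0.093, adjusted p = 0.0959). Iglv1 overlaps a gene on the opposite strand, 2010309G21Rik, which had 69, 70, 44 and 40 counts, and whether the counting used strand is not given in the sources used here.

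Usage was uneven among the members in every library. The 10 most used members held 39.9% and 41.5% of V counts in wild type against 46.7% and 45.8% in cKO-labelled libraries, and the 20 most used held 60.7% to 63.6%. Members were ranked by mean usage over the libraries of both genotypes. Iglv2, at a mean of 1.96% in wild type and 4.90% in cKO-labelled libraries, is among the 10. Igkv6-15, at 3.04% and 1.94%, is not, so part of the difference follows from the choice of members. Only 29 members had a mean usage above 1%, and 21 lay under 0.1%. A single count was worth 0.00343% to 0.00443% of usage, so changes of the rarest members were poorly resolved.

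The most used kappa genes did not move together. Igkv1-117 had 1426 and 1428 counts in wild type against 2050 and 1849 in cKO-labelled libraries, so that its level rose (log2 change 0.50 ± 0.069, adjusted p = 7.64e-06, edgeR) while its usage, at 6.32% and 5.86% against 7.03% and 6.37%, was not called (adjusted p = 0.139). Igkv1-135 rose in usage from 4.07% and 4.63% to 5.12% and 5.04% (log2 change 0.22 ± 0.084, adjusted p = 0.0242), a call that was lost in DESeq2 (adjusted p = 0.0724) and without wild type library 1 or either cKO-labelled library (adjusted p = 0.218, 0.111 and 0.0844). Igkv1-110 stood at 4.04% and 4.99% against 4.57% and 4.63%, inside the spread of the wild type libraries. These 3 genes belong to the Igkv1 family, the most used kappa family. Igkv10-96 went the other way, from 4.95% and 5.23% to 3.58% and 3.64% (log2 change -0.50 ± 0.083, adjusted p = 1.77e-05), and its level was not called (log2 change -0.13 ± 0.069, adjusted p = 0.201). Igkv14-111 had a usage of 3.75% in both wild type libraries and of 3.21% and 2.53% in the cKO-labelled ones (log2 change -0.39 ± 0.10, adjusted p = 0.00181), and this call was lost without wild type library 2 (adjusted p = 0.0509) or cKO-labelled library 2 (adjusted p = 0.129). Igkv19-93 stood at 3.19% and 3.29% against 3.34% and 3.0%, and Igkv17-127 at 2.69% and 2.58% against 2.53% and 2.20%, and neither was called in usage (adjusted p = 0.769 and 0.191).

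**Figure D2:**
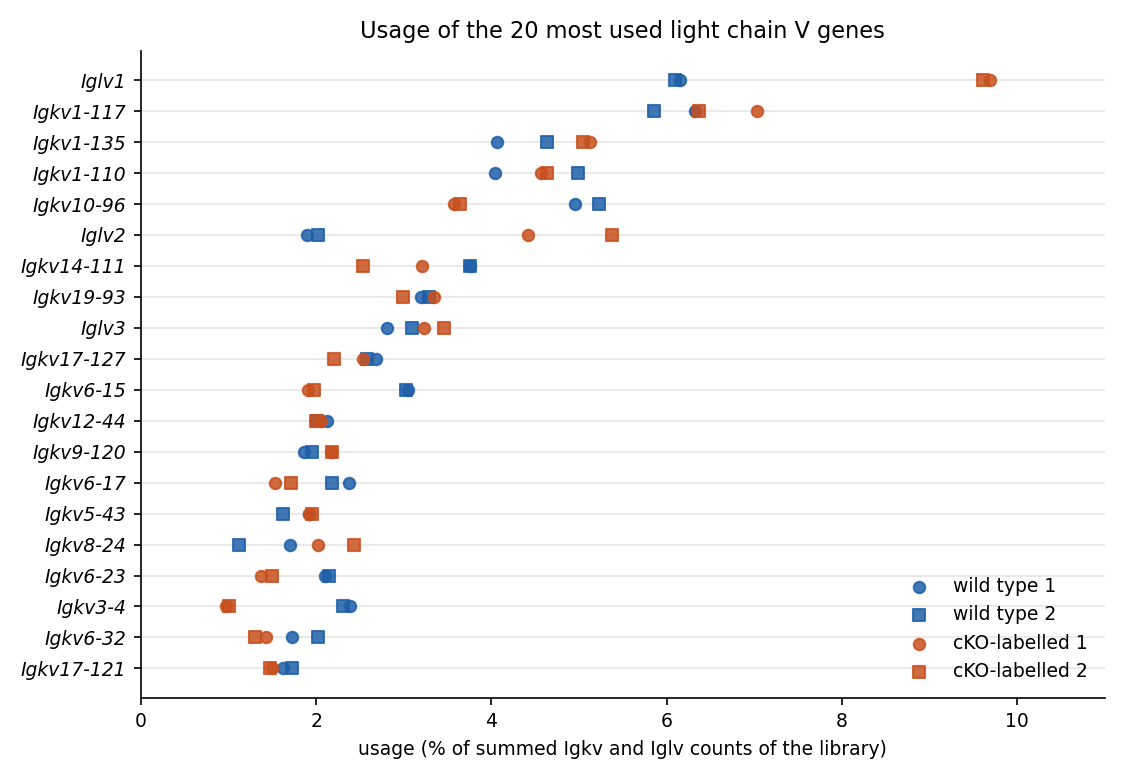
Usage of the 20 most used members, in percent of all Igkv and Iglv counts of a library, with 1 point per library. The wild type and cKO-labelled points separate widely for Iglv1, Iglv2, Igkv10-96, Igkv6-15 and Igkv3-4. They overlap for Igkv1-110, whose wild type points lie apart, and for Igkv19-93.

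In level, 27 members rose, 4 fell and 67 were not called among the 98 members that passed the filter on low counts. That is 27.6% higher and 4.08% lower, against 12.2% called higher and 9.54% called lower over all 14180 genes tested (edgeR, adjusted p under 0.05). The median log2 change was 0.26 over the members tested and -0.01 over all genes tested, and 68 of the 98 members had a positive change. The members that fell were Igkv3-4, Igkv3-5, Igkv6-15 and Igkv12-89, and in DESeq2 only 1 member was called lower. The calls of Igkv6-15 and Igkv3-5 were lost in DESeq2 and without wild type library 1 or cKO-labelled library 1, and the number of members called lower was 1 without wild type library 1 and 2 without cKO-labelled library 1. The 5 members that were not tested were Igkv5-37, Igkv4-71, Igkv7-33, Igkv4-62 and Igkv13-87.

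In usage, which sets each gene against the V total of its own library, 10 members rose, 20 fell and 68 were not called. Over all genes the usage scale called 5.22% higher and 56.5% lower, and the median log2 change of all genes on that scale was -0.37. These values follow from the rise of the V total, which divides every gene, and are no yardstick for the members, whose median was -0.10. Because so many genes were called on the usage scale, an adjusted p of 0.05 stood there at an unadjusted p of 0.0308, against 0.0109 in the level fit, and 8 of the 10 higher and 13 of the 20 lower members had an unadjusted p at or under the latter. The members that rose in usage held 17.6% of V counts in wild type and 27.4% in cKO-labelled libraries (mean of 2 each), and those that fell held 29.9% and 20.1%. These sums give the size of the calls only, since the members were picked by the same values and the directions follow from that choice. Both fits use the same counts with different library sizes. Because the V total rose, each member has a higher log2 change in level than in usage by construction. The overlap of calls is therefore no separate support. All 10 members that rose in usage also rose in level. Of the 20 that fell in usage, 4 also fell in level and 16 were not called there, and 17 members rose in level without a call in usage. With the summed Igkv count alone as the denominator, 15 members were called higher and 12 lower. Without wild type library 1 only 5 were called higher, without wild type library 2 only 12 were called lower, and DESeq2 called 6 higher and 12 lower.

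**Figure D3:**
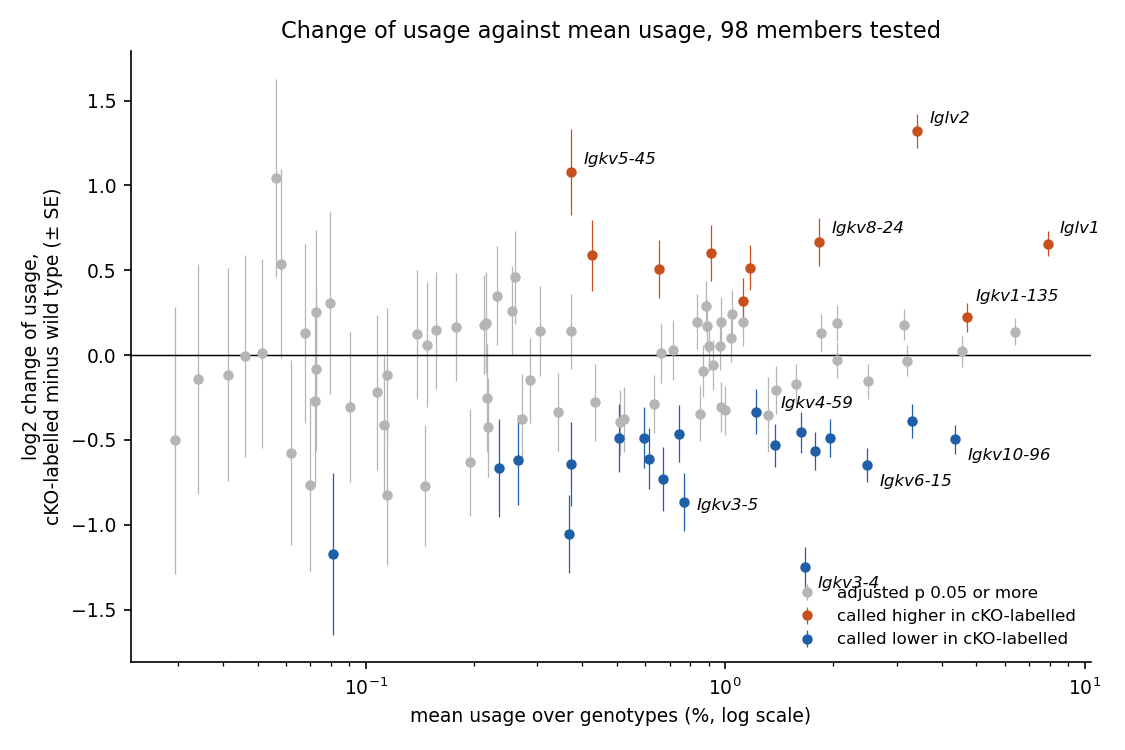
Log2 change of usage (cKO-labelled minus wild type, ± SE) of the 98 members tested against their mean usage in percent on a log axis. Iglv2 (1.32) and Igkv5-45 (1.08) lie at the top and Igkv3-4 (-1.25) at the bottom, and most of the rarely used members are not called.

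The largest falls with at least 100 counts per library on average were in Igkv3-4, Igkv3-5, Igkv6-20, Igkv6-15 and Igkv12-41. Igkv3-4 had 539 and 561 counts in wild type against 283 and 292 in cKO-labelled libraries, a usage of 2.39% and 2.30% against 0.970% and 1.01% (log2 change -1.25 ± 0.12, adjusted p = 3.88e-09, edgeR). The libraries of a genotype were nearly equal, and its level fell as well (log2 change -0.88 ± 0.11, adjusted p = 2.30e-06). Its neighbour Igkv3-5, which lies 58.7 kb from the first J gene where Igkv3-4 lies 50.2 kb from it, had 248 and 214 counts against 143 and 173 (usage log2 change -0.86 ± 0.17, adjusted p = 1.29e-04). Igkv3-5 shares 21.2% of its windows of 100 bases with Igkv3-10, which had a usage of 0.971% and 0.755% against 0.613% and 0.637%. Igkv6-15 had 687 and 737 counts against 556 and 572 (usage log2 change -0.65 ± 0.098, adjusted p = 5.58e-06). Igkv6-20 had 191 and 202 counts against 179 and 115 (usage log2 change -0.73 ± 0.19, adjusted p = 0.00171), and without the second cKO-labelled library the adjusted p was 0.0536. Igkv6-20 shares 55.8% of its windows of 100 bases with Igkv6-29. Igkv12-41 had 186 and 160 counts against 145 and 137 (usage log2 change -0.61 ± 0.18, adjusted p = 0.00524), and without the first wild type library the adjusted p was 0.104.

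The largest rises under the same minimum were in Iglv2, Igkv5-45, Igkv8-24, Iglv1 and Igkv5-39. Igkv5-45 was rare, with 55 and 57 counts in wild type against 109 and 185 in cKO-labelled libraries, a usage of 0.244% and 0.234% against 0.374% and 0.637% (log2 change 1.08 ± 0.26, adjusted p = 7.82e-04, edgeR). Both cKO-labelled libraries lay above wild type but differed 1.71-fold from each other, and without the second the adjusted p was 0.0647. Its near-copy Igkv5-43 stood at 1.92% and 1.62% against 1.92% and 1.95%. Igkv8-24 had 383 and 272 counts against 591 and 707, a usage of 1.70% and 1.12% against 2.03% and 2.43% (log2 change 0.67 ± 0.14, adjusted p = 2.75e-04), with an adjusted p of 0.0544 without the second wild type library. Igkv5-39 had 131 and 212 counts against 315 and 328, a usage of 0.581% and 0.870% against 1.08% and 1.13% (log2 change 0.60 ± 0.16, adjusted p = 0.00284), with an adjusted p of 0.0968 without the first wild type library.

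Members with a wide spread between libraries of a genotype limit what a single gene can show. Igkv4-59 had 319 and 375 counts in wild type against 189 and 485 in cKO-labelled libraries, which differ 2.58-fold in usage, the widest among members with a mean of 100 counts. Its usage was not called (log2 change -0.35 ± 0.22, adjusted p = 0.174, edgeR), and the change was 0.18 without the first cKO-labelled library and -1.19 without the second. The next widest were Igkv5-45, Igkv6-20, Igkv8-24 and Igkv5-39, between 1.5-fold and 1.71-fold, and these are also among the genes with the largest changes. Iglv1 by contrast differed 1.01-fold within either genotype.

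Grouped by family, the Igkv6 and Igkv3 genes fell and the lambda, Igkv5 and Igkv2 genes rose where they were called. The Igkv6 family (8 members) held 11.9% and 12% of V counts in wild type against 8.27% and 8.13% in cKO-labelled libraries, and 6 of its 8 members were called lower. The Igkv3 family (8 members) held 8.20% and 7.30% against 5.22% and 5.54%, with 4 of 8 called lower. The Igkv10 family (3 members) held 6.59% and 6.91% against 4.97% and 4.95%, with 2 called lower. Of 6 Igkv12 members 3 were called lower, and so were both tested members of Igkv13 and 1 of 4 of Igkv14. The Igkv8 family (9 members) held 6.71% and 6.19% against 7.60% and 7.92%, with 2 members called higher and 1, Igkv8-18, called lower. Igkv5 and Igkv2 each had 2 members called higher. The Igkv1 family (8 members) held 15.4% and 16.4% against 17.7% and 16.9%, with 1 member called higher, and its genotypes did not overlap. The largest family, Igkv4 (29 members, 27 tested), held 9.82% and 9.45% against 9.39% and 10.1%, with overlap and with 1 member called in each direction.

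**Figure D4:**
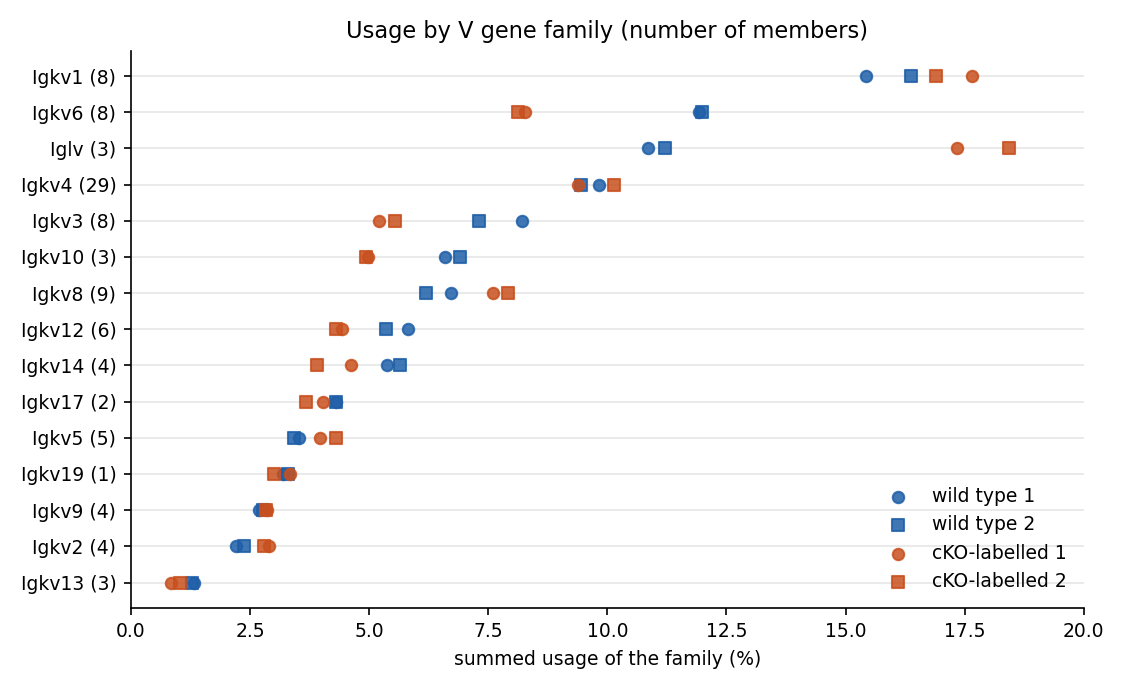
Summed usage of each V family with at least 1% of wild type V counts, in percent, with the number of members in brackets and 1 point per library. Iglv lies at 10.9 and 11.2% in wild type against 17.3 and 18.4% in cKO-labelled libraries, Igkv6 and Igkv3 lie lower in cKO-labelled libraries, and Igkv4 overlaps.

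The family differences were smaller for Igkv6 and Igkv3 when kappa genes were set against kappa counts alone, which takes the lambda rise out of the denominator. This change of denominator scales all kappa families of a library alike, so every ratio moves up by construction and it is no separate check of a family. The cKO to wild type ratio of the family share was then 0.744 for Igkv6 and 0.752 for Igkv3, against 0.686 and 0.694 of all light chain V counts. The ratio for Igkv8 was 1.30 against 1.20, for Igkv5 1.29 against 1.19 and for Igkv1 1.18 against 1.09. The Igkv6 and Igkv3 families remained lower in both cKO-labelled libraries than in both wild type libraries on the kappa scale, at 10.0% and 9.99% against 13.4% and 13.5% for Igkv6 and at 6.32% and 6.80% against 9.22% and 8.23% for Igkv3.

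Kappa members lie between 18.4 kb and 3166 kb upstream of Igkj1, the first J gene, and those nearest to the J genes were most often called lower in usage. Bins of 500 kb, chosen after the values were seen, describe this. In the bin nearest to Igkj1, 10 of 18 members were called lower, and the bin held 19.3% and 18.5% of V counts in wild type against 13.3% and 13.6% in cKO-labelled libraries. In the next bin 4 of 18 members were called higher and 3 lower, and the summed usage of 15.9% and 14.9% against 15.5% and 16.2% overlapped. Of the bins that follow, the third had 1 member called higher and 1 lower of 18, the next had 3 lower of 17, the next 3 lower of 12 and the next 1 higher of 15. Both members beyond 3000 kb, Igkv2-137 and Igkv1-135, were called higher. Igkv2-137 had a usage of 0.940% and 0.985% against 1.39% and 1.36%, and it overlaps the gene Gm42889, with which it shares 50.5% of its windows of 100 bases.

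Position and family cannot be told apart in full, because the nearest bin holds all 8 Igkv3 genes and 6 of the 8 Igkv6 genes. Its other 4 members are Igkv8 genes, which held 2.16% in wild type and 2.13% in cKO-labelled libraries on average, with 1 called lower. Within that bin the Igkv6 genes held 8.97% against 5.95%, with 5 called lower, and the Igkv3 genes 7.75% against 5.38%. On the kappa scale the nearest bin held 21.7% and 20.8% in wild type against 16.2% and 16.7% in cKO-labelled libraries. Orientation showed little contrast: the 62 kappa members transcribed opposite to Igkc held 44.8% and 44.2% against 40.1% and 41.0%, and the 38 with the same orientation held 44.2% and 44.4% against 42.4% and 40.4%.

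**Figure D5:**
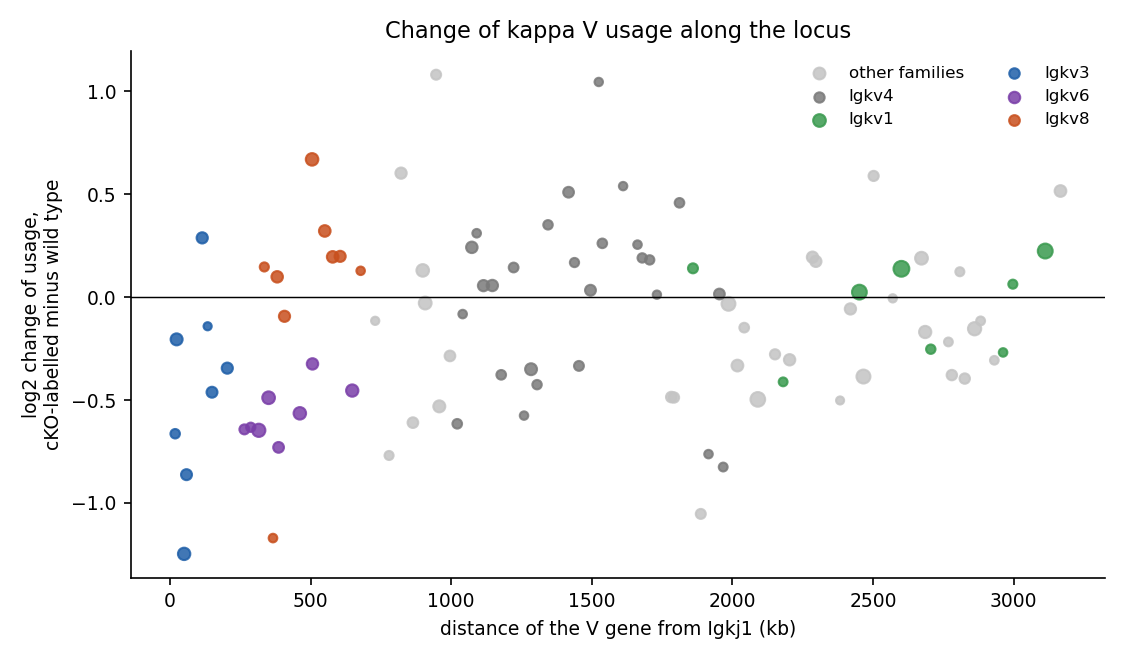
Log2 change of usage of each tested kappa member against its distance from Igkj1 in kb, coloured by family, with larger points for more used genes. Most points within 500 kb, of the Igkv3 and Igkv6 families, lie below 0, and the points of Igkv8 beyond 500 kb lie above it.

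The V repertoire differed more between genotypes than within them. The usage distance, which is the summed absolute difference of member shares divided by 2, was 5.52% between the wild type libraries, 5.25% between the cKO-labelled libraries and 12.9% to 14.2% in the 4 pairs across genotypes. Pairs within a genotype still differed by more than counting noise, with a chi-square per degree of freedom of 2.80 in wild type and 4.26 in cKO-labelled cells, so no library was a copy of another. The effective number of V genes, the exponential of the Shannon entropy of usage, was 54.8 and 54.0 in wild type against 49.6 and 49.3 in cKO-labelled libraries (exact permutation test, p = 0.33, its floor). The difference of -4.94 became -2.43 without Iglv1. Among the 98 members tested, the libraries of the genotypes did not overlap in usage for 24 that were higher (24.5%) and 38 that were lower (38.8%) in cKO-labelled cells. Of all tested genes 8.78% lay above and 71.6% below on this scale (80.4% in either direction), which follows from the rise of the V total and is no yardstick. In level, 47 of the 98 lay above (48.0%) and 13 below (13.3%) without overlap, and 38 overlapped. Of all tested genes 29.2% lay above and 28.7% below in level (57.9% in either direction). Taken in either direction, the members were near that share.

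Genes of the light chain pathway were read from lists. Of the surrogate light chain and recombination genes, 1 of 7 passed the filter on low counts. That gene was Vpreb3, at 9.91 and 7.72 CPM in wild type against 8.10 and 5.61 CPM in cKO-labelled libraries (log2 change -0.36 ± 0.20, adjusted p = 0.243, edgeR), and Rag2, Dntt and Vpreb2 had no count in any library. Among 17 factors that bind light chain promoters and enhancers, 5 fell and 1 rose, where 9.54% of all genes tested were called lower and 12.2% higher. Pou2f2, which encodes the octamer factor OCT2, fell from 277 and 272 CPM to 196 and 193 CPM (log2 change -0.50 ± 0.058, adjusted p = 5.58e-07). The others that fell were Tcf3, Pax5, Ikzf3 and Spib, and Irf8 rose.

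Several markers of other B cell states and cell types moved with the same labels, and their part in the changes of V usage was not tested. The calls below stand beside 12.2% of all genes tested called higher and 9.54% called lower in level. Of 15 plasma cell genes tested, 9 rose, and the list summed to 1293 and 1298 CPM in wild type against 1535 and 1576 CPM in cKO-labelled libraries. Ly6c2, a surface protein of plasma cells among others, rose from 2.20 and 1.68 CPM to 34.6 and 31.7 CPM (log2 change 4.10 ± 0.17). Jchain, which links secreted IgM and IgA, rose from 23.0 and 22.3 CPM to 70.4 and 76.2 CPM, and Sdc1, the plasma cell marker CD138, was at 5.80 and 6.50 CPM against 4.66 and 3.83 CPM (adjusted p = 0.107, edgeR). Of 16 marginal zone, B-1 and follicular markers, 9 rose and 5 fell, led by Plac8 (77.3 and 67.7 CPM against 180 and 164 CPM). Cd5, a B-1a marker, was at 2.72 and 3.0 CPM against 2.38 and 4.41 CPM and was not called. T cell markers summed to 3.05 to 5.21 CPM in all libraries, and the 2 of 8 tested, Cd3g and Lat, had adjusted p = 0.881 and 0.882. Macrophage and monocyte markers summed to 129 and 123 CPM against 46.5 and 56.3 CPM, and 1 of 5 tested, Adgre1, was called lower. Adgre1 alone made up most of these sums, at 111 and 107 CPM against 30.2 and 40.3 CPM, so the lower sum reflects this gene. The other tested markers were not called, and Csf1r stayed at 0.29 to 1.51 CPM. Dendritic cell markers summed to 60.1 and 59.0 CPM against 114 and 120 CPM, with 4 of 5 tested called higher, led by Flt3, and with Clec9a at 0.05 to 0.11 CPM. NK cell markers summed to 1.57 to 1.68 CPM against 5.49 to 6.93 CPM, with both tested members, Nkg7 and Prf1, called higher. Erythroid markers summed to 0.87 to 1.47 CPM against 3.83 to 4.01 CPM, with 2 of 3 tested called higher, led by Hbb-bs.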

How the data were processed

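Activated B cells of 2 wild type and 2 cKO-labelled libraries were compared. The deposited table held gene counts, exon lengths and FPKM values of the authors. The order of genes per length was computed from counts and exon lengths, and no value given here is an FPKM. The submitters' processing notes name HTSeq 0.6.1, HISAT2 2.0.1, cutadapt 1.9.1 and the build GRCm38, without settings, and neither annotation release nor strand setting is stated. All 103 members matched GENCODE M21 by identifier and coordinates. The counts of genes passing filterByExpr (minimum count 10) were fitted on genotype with edgeR 4.0.16 (R 4.3.3; quasi-likelihood test, Benjamini-Hochberg adjustment over 14180 genes). The level fit used TMM scaling, and the usage fit replaced the library size by the summed Igkv and Iglv count. SE is the log2 change divided by the square root of F. DESeq2 1.42.0, other scalings, filters and denominators, and leaving out libraries were alternatives. The code was tested on simulated data. In usage, 3 counts were 0.0103% to 0.0133% of the summed Igkv and Iglv counts of a library. Binomial intervals are exact. Named members were the 10 most used, all Iglv genes and, with a mean of 100 counts, the 5 largest called rises and falls and the 5 largest within-genotype ratios; of each list, the gene with the smallest adjusted p. Members and lists were chosen with earlier results of these data known, and further list genes and relatives of named members were named after their values were seen. Some list genes are not reported here. Replicate numbers were not treated as pairs, since deviations of the libraries numbered 1 correlated at -0.03 over all genes tested.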

Additional observations from a re-analysis of the deposited data

How the results depend on the processing

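Every member called both in the reported fit and in an alternative kept its direction. DESeq2 called 20 members in level, 1 of them lower, and 18 in usage, 6 higher and 12 lower. Leaving out 1 library at a time gave 24 to 28 level calls, 21 to 27 higher and 1 to 4 lower, and 19 to 25 usage calls, 5 to 8 higher and 12 to 17 lower; the 5 came without wild type library 1, which left 19 calls, and the 12 without wild type library 2. With Igkv counts alone as denominator 12 members were lower in usage. With a replicate block, 31 members were called in level and 31 in usage, and with the numbers crossed, 31 and 31; the block moved no count of member calls by more than 1. The usage distance difference of 8.14 became 6.98 without Iglv1. Left out in turn, libraries gave 0.33 to 0.40 for the log2 difference of the V level, 6.31 to 7.40 points for the lambda share, -5.36 to -4.52 for the effective number and 7.63 to 8.57 for the distance difference. Of the recomputed values of named members, 342 kept direction and call, 17 lost and 9 gained a call, and 12 changed sign. Left out in turn, libraries gave a level change of -0.18 to 0.12 for Igkv14-111 and -0.84 to 0.56 for Igkv4-59, and a usage change of -0.12 to 0.19 for Igkv1-110, -0.11 to 0.044 for Igkv19-93 and -1.19 to 0.18 for Igkv4-59; without wild type library 1 the level changes of Igkv14-111 and Igkv4-59 were 0.012 and -0.0051. The level change of Igkv4-59 was -0.068 with a replicate block, -0.086 with it crossed and -0.00082 with upper-quartile scaling. The usage change of Igkv19-93 was 0.082 with Igkv counts alone and 0.022 without Iglv1 in the denominator. The cause was not tested. With 2 libraries a genotype, exact permutation p-values cannot fall below 0.33, and members under about 0.1% usage are resolved poorly.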
